A study of Homo sapiens with 3 samples.

Results

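The snoRNA host long noncoding RNAs are spliced transcripts whose introns contain small nucleolar RNAs (snoRNAs). The 10 hosts described here are GAS5, SNHG1, SNHG3, SNHG5, SNHG6, SNHG7, SNHG8, SNHG12, SNHG15 and ZFAS1. They were chosen by gene name, and every experimental probe that carries one of these names was taken: 26 of the 58201 different probes on the array, for 10 of its 41810 gene names. The arrays were hybridised with RNA of HCT116, a human colorectal carcinoma cell line, and measure RNA as the fluorescence (intensity) of 60-base probes. There were 3 arrays, 1 for each group: NC, the control cells, and KD1 and KD2, in which PRMT1 was knocked down by siRNA transfected with Lipofectamine 3000. The labels do not say which of the 2 siRNA sequences is KD1 and which is KD2 or what the NC cells were given, and state no other allele or agent for any group. The comparison asks which transcripts differ once PRMT1, the arginine methyltransferase that deposits the asymmetric dimethyl mark on arginine 3 of histone H4 (H4R3me2a), is depleted.

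Most human snoRNAs are not transcribed from promoters of their own. They are cut out of introns of a host transcript, and the exons are spliced into an RNA that, for the hosts here, encodes no known protein. Box C/D snoRNAs (SNORD) guide ribose methylation and box H/ACA snoRNAs (SNORA) guide pseudouridylation, mostly of ribosomal RNA. Many spliced hosts begin with a terminal oligopyrimidine (TOP) tract like that of ribosomal protein mRNAs, associate with ribosomes and are removed by nonsense-mediated decay, so the level of the spliced RNA and that of its snoRNAs are set separately. Several hosts, among them SNHG1, SNHG6, SNHG12 and SNHG15, are known for high levels in colorectal and other tumours, whereas GAS5 is known for its accumulation in growth-arrested cells.

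With 1 array per group no difference has a replicate check, and none was tested. Levels are normalized log2 intensities, in which 0 is the 75th percentile of the probes of the same array, and a change is the knockdown array minus the NC array. A change past 1.5-fold (0.58 on the log2 scale) in either direction was counted. In bulk RNA, fewer cells that express a gene and less RNA per cell cannot be told apart. The number of arrays limits the precision, and differences between sister cultures and between hybridisations cannot be told apart from the effect of an siRNA. As a measure of spot error, repeated spots of a probe on an array had a median SD of 0.04 to 0.05 on the log2 scale. As a yardstick, KD1 minus KD2 had a robust SD of 0.24 over the 1404 genes at least as bright as the dimmest host. That spread mixes differences between the 2 siRNAs with noise and does not include the NC array, so it does not measure the error of a change from NC. PRMT1 itself read 6.03 on the NC array, 2.75 on KD1 and 1.48 on KD2, which is 10.3% and 4.26% of NC. Of 8 colon epithelial markers 6, EPCAM, KRT8, KRT18, KRT19, CDH1 and CDX2, were well above background on all arrays, and VIL1 and CDH17 on none. They lay on both sides of NC, with 1 past 1.5-fold higher and 1 lower in KD1 and 1 higher in KD2, from KRT8 at -0.89 to CDH1 at 0.94 in KD1 and from KRT18 at -0.56 to CDH1 at 0.76 in KD2. Of 7 markers of other cell types, CD3E, COL3A1, PECAM1 and GFAP were not above background on any array, PTPRC was above it on 1, and ALB and COL1A1 on all. ALB differed from NC by 0.15 in KD1 and -0.16 in KD2, and COL1A1 by 0.26 and 0.62, the latter past 1.5-fold in KD2. The part of these markers in the results below was not tested.

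The start sites of the hosts are shown because they are the feature, beside the snoRNAs, that most of these genes share and that the choice by name did not use. RefSeq (GRCh38.p14) gave a promoter for 8 of the 10. Each line holds 40 bases before the annotated start and 20 from it on, 5′ to 3′ on the strand of the gene. Capitals mark the unbroken run of C and T over the start base, where it is 5 bases or longer, and the letters TATAA between 40 and 20 bases before the start.
ZFAS1, chr20:49278602-49278661, plus strand: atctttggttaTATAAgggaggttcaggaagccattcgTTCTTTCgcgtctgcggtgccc
SNHG5, chr6:85678714-85678773, minus strand: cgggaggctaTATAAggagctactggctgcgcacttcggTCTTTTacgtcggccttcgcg
SNHG1, chr11:62855866-62855925, minus strand: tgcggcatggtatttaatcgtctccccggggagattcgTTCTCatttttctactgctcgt
GAS5, chr1:173869026-173869085, minus strand: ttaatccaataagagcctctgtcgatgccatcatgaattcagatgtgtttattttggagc
SNHG12, chr1:28581854-28581913, minus strand: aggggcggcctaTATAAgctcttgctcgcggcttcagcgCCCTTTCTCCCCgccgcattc
SNHG7, chr9:136728165-136728224, minus strand: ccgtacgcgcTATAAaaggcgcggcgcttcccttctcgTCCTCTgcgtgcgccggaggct
SNHG8, chr4:118278722-118278781, plus strand: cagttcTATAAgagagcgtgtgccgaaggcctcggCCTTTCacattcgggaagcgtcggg
SNHG3, chr1:28505903-28505962, plus strand: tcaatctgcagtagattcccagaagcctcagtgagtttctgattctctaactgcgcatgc

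A pyrimidine run of at least 5 bases lay over the start in 6 of these 8 promoters, against 9.60% of the 35116 promoters in the table. The run was longest in SNHG12, at 12 bases, and none lay over the annotated start of GAS5 or SNHG3. The letters TATAA stood in the window in 5 of the 8 promoters, those of ZFAS1, SNHG5, SNHG12, SNHG7 and SNHG8, against 3.77% of all promoters. On the other strand TATAA was found in 1 of the 8, ZFAS1, where it overlaps the match shown, and in 1.59% of all promoters. Among 41 promoters of protein-coding snoRNA hosts, most of them ribosomal protein genes, 20 had the pyrimidine run and 6 had TATAA. Among the promoters of 14 other noncoding snoRNA hosts 3 had the run and 2 had TATAA, so a minority of that class held either. These matches describe letters around an annotated start and were not tied to any change below.

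None of the 10 hosts was past 1.5-fold in either knockdown. The background was 26.4% of the 19231 genes measured in KD1, 12.4% higher and 14.0% lower, and 20.2% of 19421 genes in KD2, 9.68% higher and 10.6% lower. Of the 1404 genes at least as bright as the dimmest host, a set defined after the values were seen, 13.5% were past 1.5-fold in KD1 and 11.2% in KD2. A count of 0 among 10 genes is close to that share and is no result about the hosts in particular. The changes of the hosts ran from -0.28 to 0.35 in KD1, while KD2 gave -0.13 to 0.42. Their median was 0.10 in KD1 and 0.00 in KD2, beside medians over all genes of -0.07 and -0.05 and, over the genes of at least their brightness, of -0.21 and -0.18. In both knockdowns 5 hosts read above NC and 4 below it, and SNHG8 lay on opposite sides of NC. KD1 and KD2 share the NC array, so these signs are not independent. The arrays of the 2 knockdowns differed from each other by at most 0.23 for any host, with a median of 0.12. Of the bright genes, 4.99% differed by over 1.5-fold between KD1 and KD2. A count of 0 among 10 hosts is close to that share too and is no result about them in particular.

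**Figure D1:**
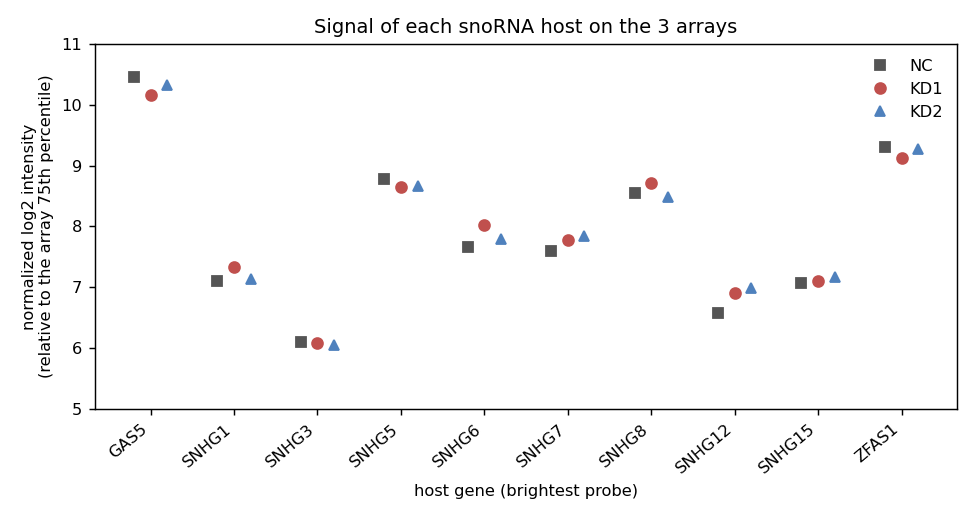
Normalized log2 intensity (vertical axis, relative to the 75th percentile of each array) of the brightest probe of each of the 10 hosts on the NC array (grey squares), KD1 (red circles) and KD2 (blue triangles), 1 array each. The 3 points of a host lie close together, with the widest differences from NC at SNHG12 (0.42 in KD2) and SNHG6 (0.35 in KD1); levels of different probes are not comparable with each other.

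**Figure D2:**
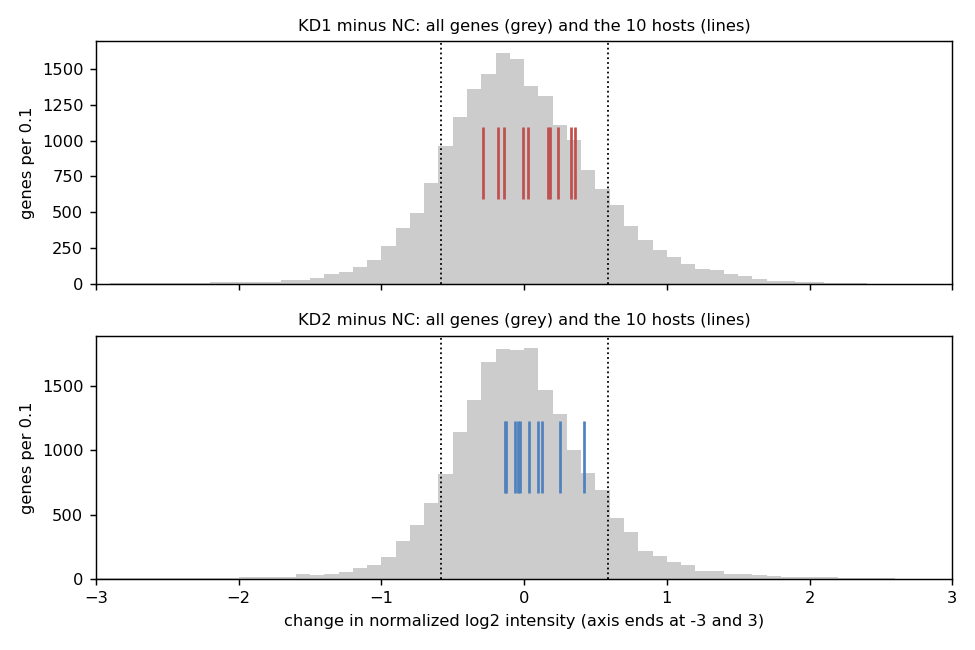
Number of genes per 0.1 of log2 change (vertical axis) against the change from NC (horizontal axis) for all genes measured in KD1 and KD2, with the 10 hosts as coloured lines placed at an arbitrary height and dotted lines at 1.5-fold. The KD1 lines of the hosts span -0.28 to 0.35 and the KD2 lines -0.13 to 0.42, inside the dotted lines in both panels.

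The hosts of box C/D snoRNAs only are GAS5, ZFAS1, SNHG5, SNHG1 and SNHG6. Of these 5, 3 read below NC and 2 above it in each knockdown, with medians of -0.14 in KD1 and -0.03 in KD2. GAS5, the host of 10 listed box C/D snoRNAs and known also as a decoy of the glucocorticoid receptor, read 10.45 on NC, 10.17 on KD1 and 10.32 on KD2 at its brightest probe. Both knockdown arrays were lower, by changes of -0.28 and -0.13. The 2 probes of GAS5 did not give the same sign in KD1. The dimmer probe read 7.77, 8.04 and 7.74 on NC, KD1 and KD2, so that its change was 0.27 in KD1 and -0.03 in KD2. The array annotation places only part of the dimmer probe on the genome, so the stretch it reads is not settled by the files. The pixels of the brightest probe had a coefficient of variation of 12.1% on KD1, 3.2% on NC and 1.8% on KD2. For the dimmer probe it was 9.5%, 9.7% and 8.8%. On KD1, 141 spots were marked as non-uniform, against 6 on NC and 5 on KD2, though no host spot was marked. The difference between the 2 probes was 0.55 in KD1 and 0.10 in KD2. The brightest probe is shown because it gives the value of the host, with the polyadenylation hexamers AATAAA and ATTAAA in capitals (5′ to 3′).
GAS5 probe at base 562: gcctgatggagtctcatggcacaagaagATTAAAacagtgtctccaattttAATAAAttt

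The probe at base 562 holds both hexamers and lies at chr1:173833049-173833108 (hg19, minus strand). One or other hexamer, read on the strand of the probe, was found in 3 of the 26 host probes and in 11.2% of all probes. GAS5 also shows how far the sign rests on scaling: as deposited, the intensities of the brightest probe were 160651 on NC, 175795 on KD1 and 157244 on KD2, higher in KD1 before the arrays were brought to a common 75th percentile.

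ZFAS1, the antisense neighbour of ZNFX1 and host of SNORD12, SNORD12B and SNORD12C, read 9.31 on NC, 9.13 on KD1 and 9.28 on KD2 (probe at chr20:47905716-47905775, hg19). Its changes of -0.18 and -0.03 were within the robust SD of KD1 minus KD2 for bright genes, a spread that does not include the NC array. SNHG5, the host of SNORD50A and SNORD50B, had the most probes. At the brightest, SNHG5 read 8.79 on NC, 8.64 on KD1 and 8.66 on KD2, with changes of -0.14 and -0.13. All but the first of the 6 probes gave nearly the same value: the 5 that start at base 193 or later changed by -0.13 ± 0.01 in KD1 and -0.15 ± 0.03 in KD2 (SD over probes of the same RNA, which are not replicates). The first, at base 96, read 4.82, 4.92 and 4.74 on NC, KD1 and KD2, a change of 0.09 in KD1 and -0.08 in KD2.

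A pair of SNHG5 probes shows how closely spots of the same arrays repeat. They are the same stretch of RNA shifted by 1 base, and the 59 bases they share are in capitals (5′ to 3′; chr6:86387513-86387572, hg19, minus strand).
SNHG5 probe at base 193: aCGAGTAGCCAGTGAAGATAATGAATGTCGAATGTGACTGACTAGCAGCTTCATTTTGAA
SNHG5 probe at base 194: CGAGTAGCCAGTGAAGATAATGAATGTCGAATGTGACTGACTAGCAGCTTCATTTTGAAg

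Both read 7.48 on NC, and their changes differed by 0.01 in KD1 and 0.05 in KD2. The SNHG5 probes at bases 322 and 330, which share 52 bases, differed in change by 0.01 in KD1 and by under 0.01 in KD2. The scatter between such spots was therefore smaller than the changes of SNHG5 itself, but it covers the array measurement only, not the culture or the transfection.

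SNHG1, the host of 8 box C/D snoRNAs, SNORD22 and SNORD25 to SNORD31, read 7.10 on NC, 7.34 on KD1 and 7.14 on KD2 at its brightest probe (chr11:62619573-62619632, hg19, minus strand). Its change was 0.24 in KD1 and 0.04 in KD2. The dimmer probe of SNHG1 at base 90 read 2.51, 2.62 and 2.43, with changes of 0.11 and -0.08, so KD1 was above NC at both probes. A further SNHG1 probe, designed on an expressed sequence tag, was not above background on any array. SNHG6, the host of SNORD87, read 7.67 on NC, 8.02 on KD1 and 7.79 on KD2 at its brightest probe. Its 3 probes gave 0.35 to 0.42 in KD1, with a mean of 0.39 ± 0.03, and 0.13 to 0.26 in KD2, with a mean of 0.18 ± 0.07 (SD over probes). Both knockdown arrays were above NC at each SNHG6 probe, and KD1 was the higher; in KD1 this was the highest value among the hosts.

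The hosts of box H/ACA snoRNAs only are SNHG3, SNHG7, SNHG8 and SNHG15, with medians of 0.10 in KD1 and 0.03 in KD2. SNHG3, the host of SNORA73A and SNORA73B, whose U17 type of snoRNA takes part in the cleavage of pre-ribosomal RNA, read 6.10 on NC, 6.09 on KD1 and 6.05 on KD2 at its only probe (chr1:28836041-28836100, hg19). The 3 arrays lay within 0.04 of each other, about the SD of repeated spots. SNHG8, the host of SNORA24, read 8.54 on NC, 8.71 on KD1 and 8.48 on KD2 (chr4:119200825-119200884, hg19), a change of 0.17 in KD1 and -0.06 in KD2. Its second probe, also from an expressed sequence tag, was not above background on any array. SNHG15, the host of SNORA9, read 7.07 on NC, 7.10 on KD1 and 7.17 on KD2 at its brightest probe (chr7:45022851-45022910, hg19, minus strand). Its 3 probes gave changes of 0.02 to 0.28 in KD1 and 0.02 to 0.10 in KD2, the upper KD1 value at the dimmest probe, which starts at base 37.

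SNHG12, which hosts both classes (SNORA16A, SNORA44, SNORA61 and SNORD99), read 6.57 on NC, 6.90 on KD1 and 6.99 on KD2. Its changes were 0.33 in KD1 and 0.42 in KD2, the highest mean of both knockdowns among the hosts. The single probe spans a splice junction, between chr1:28905179 and chr1:28906090 (hg19, minus strand), and so reads the spliced RNA.

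SNHG7 had the widest spread between probes of the 6 hosts with several measured probes, in both knockdowns. Its 4 probes are shown in the order of their starts, each with its place (hg19, minus strand), because they do not move together. None holds AATAAA or ATTAAA, so no letter is in capitals.
SNHG7 probe at base 357, chr9:139620797-139620856: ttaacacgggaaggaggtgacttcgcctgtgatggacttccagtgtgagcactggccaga
SNHG7 probe at base 766, chr9:139619188-139619247: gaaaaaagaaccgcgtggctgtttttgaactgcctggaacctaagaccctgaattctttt
SNHG7 probe at base 907, chr9:139619047-139619106: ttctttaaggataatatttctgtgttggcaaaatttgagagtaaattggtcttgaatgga
SNHG7 probe at base 1814, chr9:139619969-139620028: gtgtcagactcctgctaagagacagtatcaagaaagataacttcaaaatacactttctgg

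The array annotation assigns the probe at base 357 to transcript variants 1, 2 and 3, those at bases 766 and 907 to variants 2 and 3, and that at base 1814 to variant 1 alone, counted along that variant. On the genome the probe of variant 1 lies between the probe at base 357 and that at base 766. The brightest probe, at base 766, read 7.60 on NC, 7.78 on KD1 and 7.85 on KD2, changes of 0.18 and 0.25. The probe at base 357 read 5.34, 5.47 and 5.51, changes of 0.13 and 0.17, so these 2 probes gave similar values. At base 907, the most downstream, SNHG7 read 3.0 on NC, 3.82 on KD1 and 3.65 on KD2, past 1.5-fold higher in both knockdowns (1.76-fold and 1.56-fold). At the probe of variant 1 it read 1.82 on NC, 0.99 on KD1 and 1.43 on KD2, past 1.5-fold lower in KD1 (-0.83) and -0.39 in KD2. Taken over the 4 probes, the SD of the change was 0.68 in KD1 and 0.43 in KD2, several times that of the other hosts with 3 or more probes. These were the only host probes past 1.5-fold, 1 of 24 higher and 1 of 24 lower in KD1, beside 12.6% and 13.5% of all probes with a gene name, and 1 of 24 higher and none lower in KD2, beside 9.74% and 10.2%. The probes at bases 907 and 1814 were the dimmest of the 4, but both were well above background on all arrays. Some of these calls rested on scaling. At base 907 the KD1 change ran from 0.77 to 1.47 over the settings run, whereas the KD2 change fell to 0.49 with median scaling. At base 1814 the KD1 change was -0.41 in the unscaled values and -0.18 with spike-in scaling, not past 1.5-fold. Whether the variants of SNHG7 differ in response or these probes also read another RNA was not tested.

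**Figure D3:**
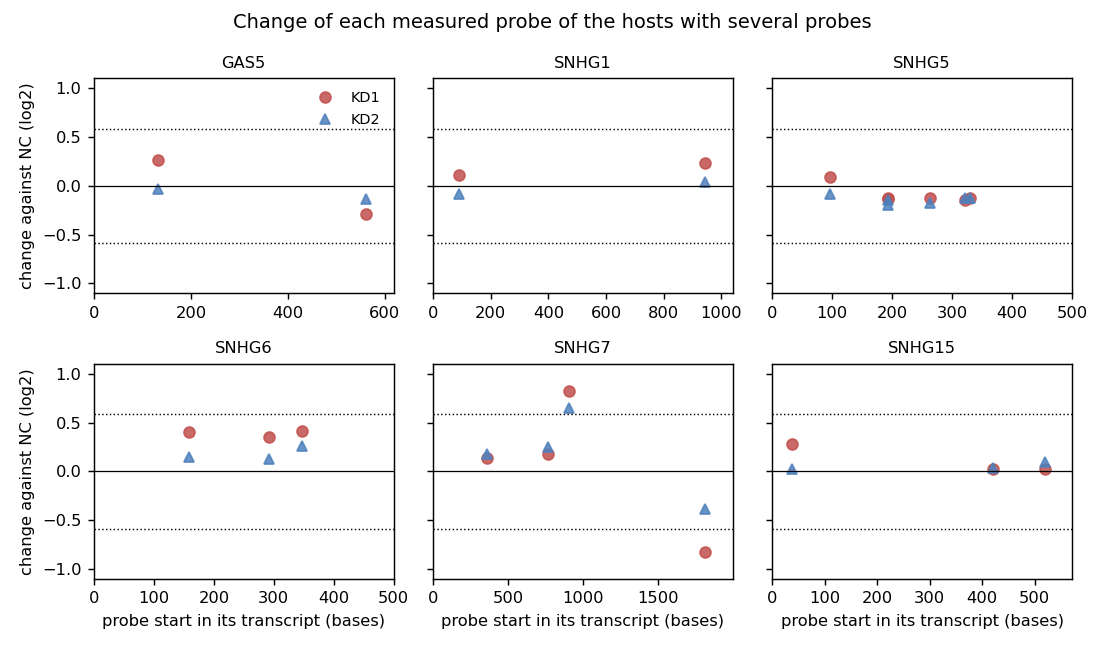
Change from NC (vertical axis, log2) of each measured probe against its first base in its own transcript (horizontal axis, bases) for the 6 hosts with several measured probes, in KD1 (red circles) and KD2 (blue triangles); dotted lines mark 1.5-fold. The probes of SNHG5 and SNHG6 lie close together, whereas those of SNHG7 run from 0.82 at base 907 to -0.83 at base 1814, which is counted along another transcript variant, in KD1.

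The snoRNAs inside the hosts gave another pattern than the spliced RNAs. Of 34 snoRNAs listed for the hosts, RefSeq places 32 inside the span of their host and lists the other 2, SNORA17 and SNORA43 of SNHG7, under other names. The array names 25 of the 34, and all 25 were well above background on at least 1 array compared. A snoRNA probe also binds the intron of the unspliced host, so mature and precursor RNA cannot be told apart. In KD1, 23 of the 25 read below NC, with a median change of -0.31, against 6 of 10 hosts above NC with a median of 0.10. Over all genes measured, 55.5% read below NC in KD1, with a median of -0.07. In KD2, 10 of 25 snoRNAs were below NC, with a median of 0.04, and the hosts had a median of 0.00. The median of the snoRNAs minus that of the 10 hosts was -0.41 in KD1 and 0.03 in KD2. No snoRNA of SNHG3, SNHG5 or SNHG7 was measured, so the 2 medians do not cover the same hosts. With each snoRNA set against its own host, the median difference was -0.50 in KD1, where 21 of 25 lay lower. In KD2 it was 0.03, where 11 of 25 lay lower. The difference between the knockdowns was not tested. The sign against NC rests on scaling: the median of the snoRNAs in KD1 was 0.10 in the unscaled values and 0.33 with spike-in scaling, beside medians over all genes of 0.35 and 0.58, but it stayed below that of the hosts in each setting run.

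Past 1.5-fold lower in KD1 were 4 of the 25 snoRNAs, none was past it higher, and 14.0% of all genes were past it lower. SNORD74 of GAS5 read 2.89 on NC, 1.57 on KD1 and 2.20 on KD2, changes of -1.32 and -0.69, and was the only snoRNA of the hosts past 1.5-fold lower in both. The other 3 lie in SNHG1. SNORD25 read 1.68, 0.80 and 1.53 on NC, KD1 and KD2, SNORD27 read 2.38, 1.52 and 2.17, and SNORD30 read 0.28, -0.46 and 0.36. In KD1 these are changes of -0.88, -0.86 and -0.74, while in KD2 each was within 0.21 of NC. The other snoRNAs of SNHG1 were also below NC in KD1, SNORD22 by -0.29, SNORD26 by -0.43, SNORD28 by -0.09, SNORD29 by -0.31 and SNORD31 by -0.40. All 8 lay below the change of SNHG1 itself, 0.24, by a median of -0.65, and KD2 gave a median of -0.12 for the same difference. For SNHG12, SNORA16A (-0.43), SNORA44 (-0.41), SNORA61 (-0.09) and SNORD99 (-0.25) were likewise below NC in KD1 where the spliced host was 0.33 above it.

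SNORA44 read 0.75 on NC, 0.34 on KD1 and 1.45 on KD2. With a change of 0.70 it was the only snoRNA of the hosts past 1.5-fold higher in KD2. The other KD2 values of that host were -0.19 for SNORA16A, 0.35 for SNORA61 and 0.01 for SNORD99. The single snoRNAs SNORD87 of SNHG6, SNORA24 of SNHG8 and SNORA9 of SNHG15 had changes of -0.15, -0.38 and -0.29 in KD1 and of 0.05, -0.04 and 0.24 in KD2. In each of these 3 hosts the snoRNA lay below the spliced RNA in KD1, by -0.50, -0.55 and -0.31. In ZFAS1 the KD1 changes were -0.44 for SNORD12, -0.03 for SNORD12B and -0.37 for SNORD12C beside -0.18 for the host, and in KD2 all 3 were above NC, by 0.25, 0.56 and 0.12.

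In KD1 the snoRNAs of GAS5 lay on both sides of the host, as did those of ZFAS1, where 2 of 3 were below it. Of its 7 measured snoRNAs 4 were below the change of the host in KD1 and the median difference was -0.01. Beside SNORD74, the KD1 changes were -0.10 for SNORD44, -0.29 for SNORD75, -0.45 for SNORD76 and -0.30 for SNORD80. SNORD47 read 1.93 on NC, 2.13 on KD1 and 1.82 on KD2. SNORD77, not well above background on NC, was higher by at least 0.42 in KD1. These were the only snoRNAs of the hosts above NC in KD1. In KD2 the GAS5 snoRNAs other than SNORD74 ran from -0.11 for SNORD47 to 0.30 for SNORD75. In KD1 the snoRNAs of GAS5 alone thus ran from -1.32 to 0.42, where the 10 hosts ran from -0.28 to 0.35.

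**Figure D4:**
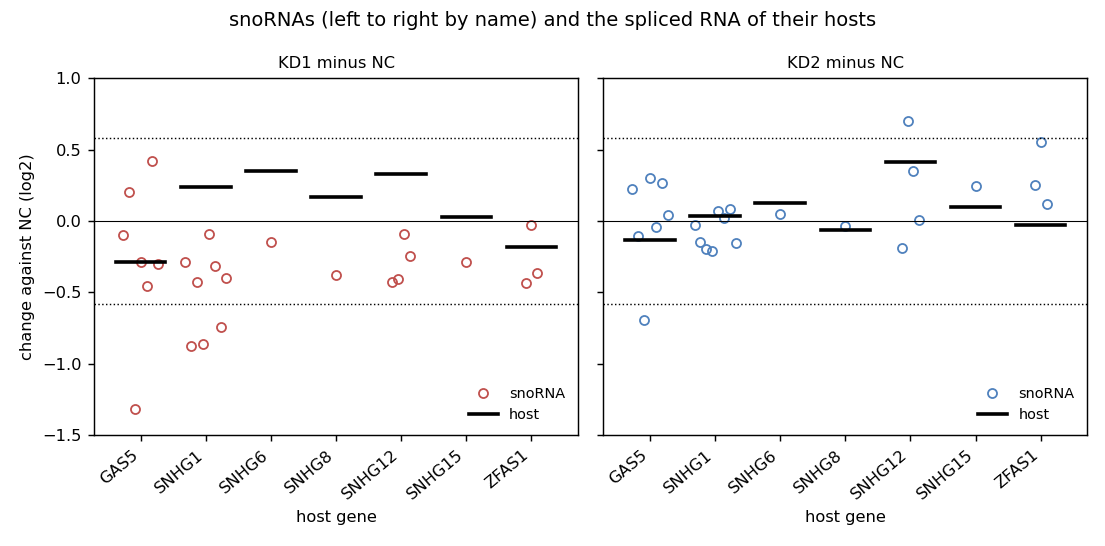
Change from NC (vertical axis, log2) of each measured snoRNA (open circles) and of its spliced host (black bars) by host gene, in KD1 (left) and KD2 (right); dotted lines mark 1.5-fold. In KD1 all 8 circles of SNHG1 and all 4 of SNHG12 lie below the bar of their host, whereas in KD2 circles lie on both sides of the bars.

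Beside the median of -0.31 for the snoRNAs of these hosts, all probes named SNORD or SNORA outside the 10 hosts, a set formed after the values were seen, gave a median of -0.38 in KD1 (149 of 173 below NC, 47 past 1.5-fold lower and 2 higher, beside 14.0% and 12.4% of all genes) and 0.09 in KD2 (72 of 180 below NC). The Cajal body RNAs (SCARNA), guides of spliceosomal RNA modification, gave medians of -0.63 in KD1 and 0.17 in KD2 over 20 genes. Lower signals of small RNAs in KD1 were therefore not particular to the hosts. Whether RNA size, labelling of that sample or the siRNA moved with it was not tested.

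Genes next to the hosts gave values of either sign. None of the 6 listed was past 1.5-fold, beside 26.4% of all genes in KD1 and 20.2% in KD2. With so few genes this count is no result about the neighbours. RCC1, the nuclear exchange factor of Ran, overlaps SNHG3 in RefSeq and starts just downstream on the same strand: it read 4.49 on NC, 3.98 on KD1 and 4.14 on KD2, lower by -0.51 and -0.35, where SNHG3 was within 0.04 of NC. ZNFX1, a helicase gene that starts across from ZFAS1, read 1.23, 1.58 and 1.73, changes of 0.35 and 0.50, at its brightest probe. The other 2 ZNFX1 probes were dimmer and read -0.42 and -0.58 in KD1 and 0.29 and 0.21 in KD2, so the KD1 sign of ZNFX1 differed between probes. SLC3A2, the heavy chain of an amino acid transporter that starts across from SNHG1, differed from NC by 0.07 and 0.02. ZBTB37, which starts within the span of GAS5 on the other strand, differed by -0.42 and -0.19. TRNAU1AP, which overlaps SNHG12 in RefSeq, differed by -0.37 and 0.00. PRSS12, beside SNHG8 without overlap, differed by 0.12 and -0.22. A few further neighbours, of SNHG6, SNHG7 and GAS5, were added after the values were seen, and none was taken for SNHG5 or SNHG15. FAM69B (DIPK1B in RefSeq), which overlaps the downstream end of SNHG7, read 2.99 on NC, 1.99 on KD1 and 1.31 on KD2, past 1.5-fold lower in both (-0.998 and -1.68), the opposite sign to the SNHG7 probe nearest to it. GAS5-AS1, which overlaps GAS5, and MCMDC2, which overlaps SNHG6, were not above background on any array.

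The other snoRNA hosts give the setting for these 10. Of 14 further noncoding hosts 12 were measured, with medians of -0.17 in KD1 and -0.11 in KD2, none past 1.5-fold higher and 2 past it lower in each knockdown. Of all genes measured, 12.4% were past it higher and 14.0% lower in KD1 and 9.68% and 10.6% in KD2, so 2 of 12 is close to the background. By the mean of both knockdowns SNHG20 was the highest, at 0.46 in KD1 and 0.34 in KD2. SNHG17 was higher than SNHG20 in KD2, at 0.44. SNHG9 was the lowest by the same mean: it read 8.76 on NC, 8.14 on KD1 and 7.87 on KD2, past 1.5-fold lower in both. The other call in KD1 was SNHG18 (-1.01) and in KD2 SNHG16 (-1.11), both picked out after their values were seen. Of 42 protein-coding hosts 39 were measured, with medians of -0.21 and -0.16. Past 1.5-fold in KD1 were EIF4A2, EIF4G2 and DKC1 on the higher side and RPL21 and RPL23A on the lower, and in KD2 EIF4A2 on the higher and RPS2 on the lower, names given for their calls. These counts, 3 of 39 higher and 2 lower in KD1 and 1 of each in KD2, stand beside the shares of all genes just given. By the mean of both knockdowns the lowest was the ribosomal protein gene RPL23A, at -0.999 in KD1 and -0.37 in KD2, and the highest the translation initiation factor gene EIF4A2, at 1.20 and 0.70. In KD2 alone RPS2 was the lowest, at -0.61.

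Proteins that bind or assemble snoRNAs had changes of both signs. Of 18 core and assembly factors all were measured, with medians of 0.04 in KD1 and -0.13 in KD2, 3 past 1.5-fold higher (DKC1, GAR1 and NUFIP1) and 1 lower (NAF1) in KD1 and none in KD2, beside 12.4% and 14.0% of all genes in KD1 and 9.68% and 10.6% in KD2. NUFIP1 was not well above background on NC, so it was higher by at least 1.09 in KD1. With only genes above background on all arrays the KD1 median of these factors was -0.01. DKC1, the pseudouridine synthase of box H/ACA particles, is itself a snoRNA host and counted in both lists. It read 4.77 on NC, 5.65 on KD1 and 5.31 on KD2. NAF1, an assembly factor of the same particles, was the lowest by the mean of both knockdowns, at -0.78 in KD1 and -0.14 in KD2, while in KD2 alone PIH1D1 was the lowest at -0.45. Nonsense-mediated decay removes many spliced hosts, so its factors were counted too: of 9, 2 were past 1.5-fold higher (UPF3B and SMG8) and none lower in KD1, and none higher and 1 lower (SMG8) in KD2, with medians of -0.12 and 0.03. The shares of all genes are those given for the assembly factors. SMG8, a regulator of the kinase SMG1, had the highest value in KD1, 0.94, and the lowest in KD2, -0.87. By the mean of both knockdowns UPF3B, an exon junction adaptor of the pathway, was the highest at 0.88 and 0.44, and SMG5, which recruits decay enzymes, the lowest at -0.15 and -0.34.

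The sign of a small change depended on how the arrays were scaled. Over 11 settings that give a value for each host, SNHG1, SNHG6, SNHG7, SNHG8 and SNHG12 read above NC in all 11 in KD1, and SNHG7 and SNHG12 in all 11 in KD2. No host read below NC in every setting. GAS5 ran from -0.33 to 0.36 in KD1, ZFAS1 from -0.23 to 0.46 and SNHG5 from -0.19 to 0.50. Under the 75th percentile scaling, bright genes as a whole were lower in KD1, with a median of -0.21. After quantile normalization, or with the typical change at each brightness taken off, all 10 hosts read above NC in KD1. Subtraction of the trend removes the lower reading of bright genes by construction, and quantile normalization gives every array the same distribution. The KD1 array was brighter before scaling, and the unscaled deposited values put 5 hosts past 1.5-fold higher in KD1, beside a median of 0.35 over all genes. Scaling to 8 spike-in probes put 7 there, beside a median of 0.58.

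**Figure D5:**
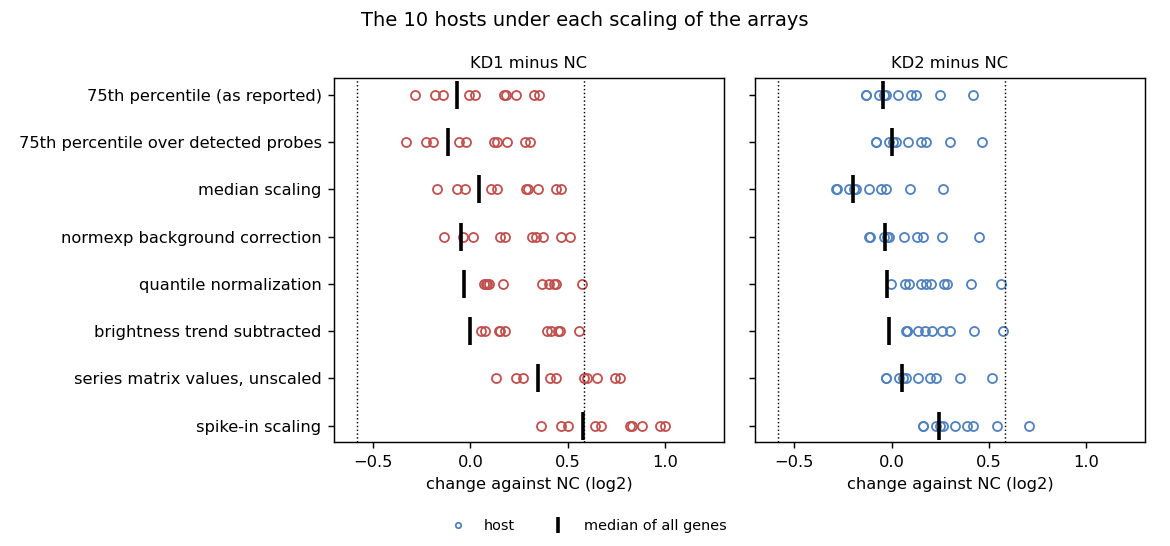
Change from NC (horizontal axis, log2) of the 10 hosts (open circles) and the median of all genes (black bars) under 8 ways of scaling or correcting the arrays, in KD1 (left) and KD2 (right); dotted lines mark 1.5-fold. With median, unscaled and spike-in values the circles shift together with the black bar, whereas with normexp, quantile normalization and the trend subtracted the KD1 circles shift upward and the bar by under 0.1. In KD1 all 10 circles lie above 0 after quantile normalization, after subtraction of the brightness trend and in both settings that do not scale on the probes of the array.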

How the data were processed

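One-colour Agilent arrays of 60-base probes were hybridised with Cy3-labelled cRNA from total RNA extracted with TRIzol. The authors scanned and quantified them with Agilent Feature Extraction 10.7.1.1; the deposited spot values are background-subtracted processed intensities on a linear scale, not scaled between arrays, and the deposited series table holds the mean intensity per probe. Probe positions are those of the array annotation (hg19).

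Control spots and spots marked as outliers were left out, log2 intensities were averaged over the spots of a probe, and the 75th percentile of each array was subtracted (Python 3.11.15, pandas 2.3.3, numpy 2.4.6). A gene was read at its probe of highest mean over the 3 arrays and counted as measured if either array compared showed that probe well above background. A value not well above background was replaced by the lowest signal that was, where this was higher. The fold of 1.5 is that of the study's methods, whose p-value needs replicates. No test was possible with 1 array per group. The counting was tested on simulated arrays. Alternatives were normexp background correction (limma 3.58.1, offset 50), quantile normalization, scaling to the median, to the 75th percentile of detected probes or to 8 spike-in probes (added after the values were seen), the unscaled series table, subtraction of a brightness trend over 500 probes, the mean over probes, every probe on its own, flagged spots kept, a stricter detection filter and a fold of 2.

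The members and lists were chosen with earlier results of these data known. Text names all 10 hosts with each probe, PRMT1, every measured snoRNA and listed neighbour of a host and, of other lists, the highest and lowest member by the mean of both changes; further names are marked as chosen later. Older symbols were matched through RefSeq synonyms held by 1 gene only. NOP56 and DKC1 stand in 2 lists. Some members of the wider lists and the sequence of one probe are not reported here, and the counts and medians of those lists are without them. Promoters are those of RefSeq on GRCh38.p14 and were not combined with hg19 positions.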

Additional observations from a re-analysis of the deposited data

How the results depend on the processing

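No paired analysis was possible because each group has 1 array. The count of 0 hosts past 1.5-fold was kept under the scaled settings with 1 value per gene and with a fold of 2. With every probe counted it was 1 higher and 1 lower in KD1 and 1 higher in KD2, all SNHG7 probes. Unscaled series values gave 5 higher in KD1, and spike-in scaling gave 7 higher in KD1 and 1 in KD2. The median change of the hosts in KD1, 0.10, became 0.24 with normexp, 0.27 with quantile normalization, 0.21 with median scaling, 0.28 with the brightness trend subtracted, 0.51 unscaled and 0.74 with spike-ins. In KD2, 0.00 became 0.19 with quantile normalization and with the trend subtracted, -0.15 with median scaling, 0.10 unscaled and 0.29 with spike-ins. Relative to the median of all genes the hosts stood at 0.17 in KD1, and at 0.29 with normexp, 0.30 with quantile normalization and 0.29 with the trend subtracted; in KD2 they stood at 0.05, and at 0.21 with quantile normalization and 0.20 with the trend subtracted. The median of the snoRNAs minus that of the hosts in KD1, -0.41, was -0.61 with quantile normalization and -0.60 with the trend subtracted, and negative in every setting run; in KD2, 0.03, it was -0.14 and -0.13. Signal over background limits 2 of the 26 host probes, which gave no value, and the changes of SNORD77 and NUFIP1, which are bounds. The cause of these shifts was not tested.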
